A study of Homo sapiens with 4 samples.

Results

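Lipid droplet and triglyceride handling was examined in the transcriptome of FaDu cells through 10 genes, PLIN2, PLIN3, PLIN4, PNPLA2, G0S2, MGLL, DGAT1, DGAT2, CD36 and FABP5. They were taken by symbol from the RNA-Seq table, keeping rows placed on an assembled chromosome, and are 10 of 62077 rows, of which 56627 lie on such chromosomes. FaDu is an established line of human hypopharyngeal squamous carcinoma cells. The cells carried a lentiviral hairpin, either a scrambled control or one against TET1 (TET1-si), and were grown in normoxia or kept in hypoxia at 1% oxygen for 19 h. The 4 groups are called N-scr (normoxia, scrambled), H-scr (hypoxia, scrambled), N-si (normoxia, TET1-si) and H-si (hypoxia, TET1-si), and each had 1 library. All 4 groups share the parental line and a hairpin vector, which was delivered by lentivirus some days before the assays. The study calls these cells clones, and whether each line grew from 1 cell is not given in the sources used here. The comparison asked how these genes responded to oxygen and to loss of TET1, a dioxygenase that oxidises 5-methylcytosine in DNA.

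A lipid droplet is a core of triglyceride and sterol ester under a single layer of phospholipid, covered by coat proteins of the perilipin family. Fatty acids enter the cell through receptors such as CD36, are carried by fatty acid binding proteins, and are joined to glycerol in steps that end with the DGAT enzymes. Stored triglyceride is broken down in sequence by PNPLA2 (adipose triglyceride lipase, ATGL), hormone-sensitive lipase and MGLL. Droplets are known to gather in many cells held at low oxygen.

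Of the 6 genes with promoter entries, promoter sequences are shown for the 3 perilipins and PNPLA2, which differed in their hypoxia responses. Each is the 250 bases before the RefSeq start of the gene on GRCh38.p14, written 5′ to 3′ on the strand of the gene. Capitals mark ACGTG or GCGTG, the core letters of the hypoxia response element, or their reverse complements CACGT and CACGC. The windows are chr9:19127493-19127742 (minus strand) for PLIN2, chr19:4867668-4867917 (minus) for PLIN3, chr19:4518487-4518736 (minus) for PLIN4 and chr11:818664-818913 (plus) for PNPLA2.
PLIN2: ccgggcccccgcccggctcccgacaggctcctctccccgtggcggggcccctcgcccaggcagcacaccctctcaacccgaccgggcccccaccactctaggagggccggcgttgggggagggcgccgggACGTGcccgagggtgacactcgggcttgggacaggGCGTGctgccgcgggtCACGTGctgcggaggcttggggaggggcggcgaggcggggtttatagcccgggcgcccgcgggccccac
PLIN3: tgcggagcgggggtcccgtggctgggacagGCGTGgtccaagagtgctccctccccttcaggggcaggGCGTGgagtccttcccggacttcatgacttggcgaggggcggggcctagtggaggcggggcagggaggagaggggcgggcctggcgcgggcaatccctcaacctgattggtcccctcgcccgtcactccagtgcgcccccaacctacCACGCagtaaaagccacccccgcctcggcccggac
PLIN4: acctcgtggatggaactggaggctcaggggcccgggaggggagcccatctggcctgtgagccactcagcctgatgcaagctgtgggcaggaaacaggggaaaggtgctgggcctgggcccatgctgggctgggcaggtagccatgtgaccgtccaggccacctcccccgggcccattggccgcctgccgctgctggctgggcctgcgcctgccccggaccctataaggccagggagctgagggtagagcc
PNPLA2: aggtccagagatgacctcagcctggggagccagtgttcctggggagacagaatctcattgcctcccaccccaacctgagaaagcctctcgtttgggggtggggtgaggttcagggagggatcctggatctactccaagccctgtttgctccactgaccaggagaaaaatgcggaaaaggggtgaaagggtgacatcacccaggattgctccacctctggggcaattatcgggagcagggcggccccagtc
The PLIN2 window held 4 matches, the nearest of them 2 overlapping matches in CACGTG from base 69 to base 64 before the start. The PLIN3 window held 3 matches, beginning 220, 182 and 35 bases before the start. No match lay in the PLIN4 or the PNPLA2 window. Of 35116 RefSeq windows of the same length, 43.2% held at least 1 match, 7.76% at least 3 and 3.22% at least 4. These matches are letters in a window and were not measured as binding sites. G0S2 and CD36 also had RefSeq windows, with 4 matches for G0S2 and 1 match in 1 of the 6 windows listed for CD36. MGLL, DGAT1, DGAT2 and FABP5 were not in the promoter table.

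The knockdown target was checked first. The TET1 hairpin listed in the methods of the study matched the TET1 transcript at the following 21 bases, shown as the one TET1 target listed there, on hg19 at chr10:70451833-70451853 in the noncoding part of exon 12 of 12.
TET1 target: ccttgatagaatcactcagtt
Whether the sequenced TET1-si cells carried this hairpin is not stated for these libraries. TET1 (ENSG00000138336, chromosome 10, 70320413 to 70454239) was given in FPKM, fragments per kb of exon scaled to sequencing depth, as for every gene. It was listed at 0.129 FPKM in normoxia and 0.331 in hypoxia with the scrambled hairpin, and 0.0493 and 0.122 with TET1-si, on about 28, 76, 11 and 26 reads. TET1 was lower in the TET1-si library under both oxygen states, by a ratio of 2.63 in normoxia and 2.71 in hypoxia. Recovered depths lay between 22400000 reads in H-si and 24500000 in H-scr. Of 10 textbook hypoxia targets, 8 reached 2-fold higher values under hypoxia with the scrambled hairpin and 7 with TET1-si. The shares of all genes with a mean of at least 1 FPKM were 12.9% and 12.5%. Between the 2 hypoxic libraries 2 of the 10 targets were at least 2-fold lower with TET1-si and 0 higher, beside 8.35% and 12% of all genes. All 9 squamous epithelium markers had a mean of at least 1 FPKM over the 4 libraries, but not every library reached that level. With the TET1 hairpin, KRT6A lay under 1 FPKM whatever the oxygen state (normoxia 0.394, hypoxia 0.357). KRT14 lay under 1 FPKM only in the normoxic TET1-si library (0.487). The 9 markers summed to 4973 FPKM in normoxia and 7781 in hypoxia with the scrambled hairpin, and 2019 and 4060 with TET1-si. KRT5 made up most of the drop in TET1-si cells, at 2673, 3992, 524 and 1430 FPKM in the order N-scr, H-scr, N-si and H-si. Because each group had 1 library, replicate error is unknown and p-values are not given. Intervals are exact 95% counting intervals (Clopper-Pearson) of the log2 ratio of 2 libraries, and they cover counting error alone. In these bulk libraries fewer cells expressing a gene and less RNA per cell cannot be told apart.

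In the order of their roles, 6 genes had a mean of at least 1 FPKM over the 4 libraries: PLIN2, PLIN3, PNPLA2, MGLL, DGAT1 and FABP5. PLIN4, DGAT2 and CD36 were lower than that, and G0S2 was listed at 0 throughout. Hypoxia in scrambled cells went with 2-fold or larger increases of PNPLA2 and DGAT1 and a decrease of FABP5 past the same fold. The counts of 2 higher and 1 lower among the 6 genes stand beside 12.9% higher and 4.53% lower among 15057 genes of the same minimum level. In TET1-si cells 0 of the 6 reached 2-fold higher in hypoxia, where the share of all genes was 12.5%. FABP5 was again the 1 gene lower, beside 8.66% of all genes. After TET1-si MGLL was the 1 gene of 6 that was at least 2-fold lower, under hypoxia (8.35% of all genes) and under normoxia (5.56%). None of the 6 reached 2-fold higher after TET1-si, a change seen for 12% of all genes under hypoxia and 12.1% under normoxia. Scaling bears on these shares. With median-of-ratios scaling 9.4% of all genes were higher and 10.6% lower after TET1-si under hypoxia, and 9.45% and 7.41% under normoxia. The median hypoxia change of the 6 genes on the log2(FPKM + 0.1) scale was 0.33 with the scrambled hairpin and 0.27 with TET1-si, where the medians of all genes were 0.05 and 0.03. With no minimum level the scrambled value was 0.02 over the 10 genes. For TET1-si the median of the 6 was -0.07 under hypoxia and 0.20 under normoxia, against 0.10 and 0.15 for all genes. The normoxic value was 0.03 with median-of-ratios or upper-quartile scaling, where the all-gene median moved as well, to -0.004 and -0.01. A set of 6 genes is too small for these counts to say more than which genes moved.

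**Figure D1:**
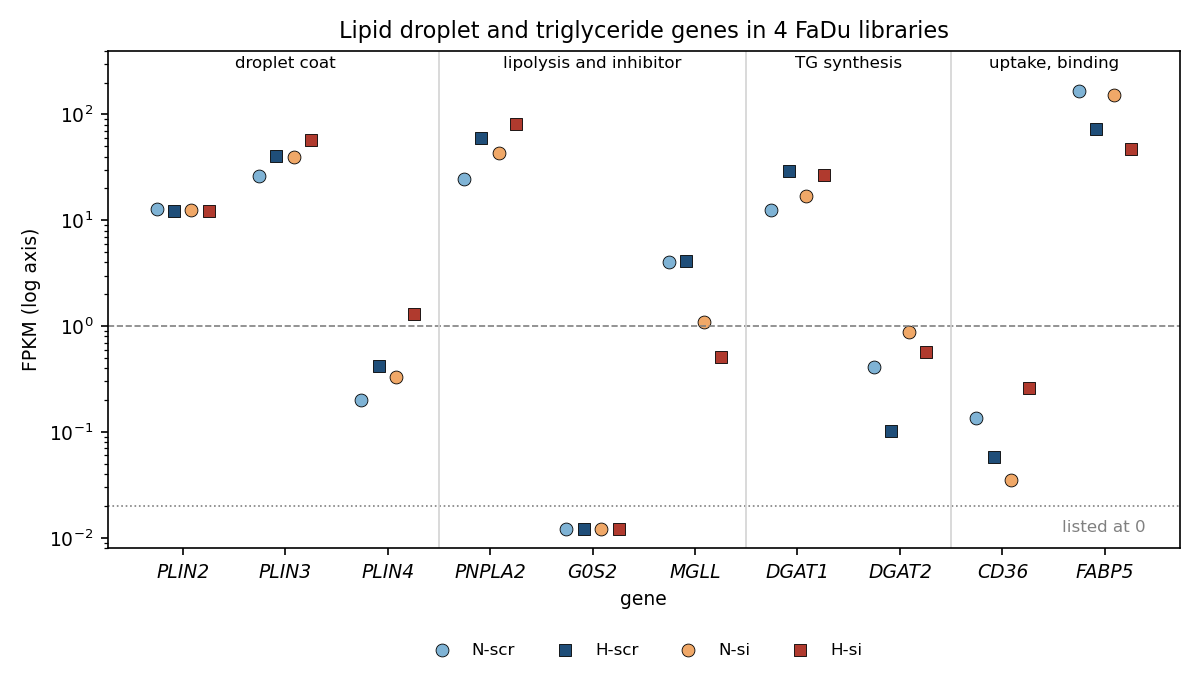
FPKM on a log axis for the 10 genes by role, with 1 point per library and no error bars, since each group had 1 library. The dashed line is 1 FPKM, and G0S2, listed at 0 in all libraries, is drawn below the dotted line, off the scale. PLIN2 lies between 12.2 and 12.8 in all libraries, while MGLL is at 4.03 and 4.14 in the scrambled libraries and at 1.10 and 0.516 in the TET1-si libraries.

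The 3 coat genes behaved differently from one another. PLIN2 (adipophilin, ENSG00000147872, hg19 chromosome 9, 19108373 to 19149288, minus strand) encodes the coat protein found on most droplets outside fat tissue. Its FPKM was 12.8 in normoxia and 12.2 in hypoxia with the scrambled hairpin, and 12.4 and 12.4 with TET1-si. The highest library was 1.04 times the lowest. The interval of the log2 ratio ran from -0.25 to 0.12 for hypoxia in scrambled cells and spanned -0.19 to 0.18 when TET1 was knocked down, and those for TET1-si from -0.17 to 0.20 under hypoxia and from -0.22 to 0.14 under normoxia. Counting error alone therefore covers all 4 comparisons, and PLIN2 had the smallest range of the 9 genes that were above 0. The sign of its changes turned with the scaling. Rescaling to TPM gave 0.05 and 0.13 for hypoxia in scrambled and TET1-si cells in place of -0.06 and -0.01, and 0.01 in place of -0.04 for TET1-si under normoxia. For TET1-si under hypoxia the value was 0.02 as deposited, -0.13 with median-of-ratios scaling and -0.09 with upper-quartile scaling.

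PLIN3 (TIP47, ENSG00000105355, chromosome 19, 4838353 to 4867780, minus strand) is an exchangeable coat protein that moves from the cytosol to young droplets. It was listed at 26.4 FPKM in normoxia and 40.5 in hypoxia with the scrambled hairpin, and 39.7 and 58.0 with TET1-si, on about 1217 to 2623 reads. N-scr was lowest, H-si highest, and H-scr and N-si were nearly level. The hypoxic library was 1.53-fold higher in scrambled cells (interval of the log2 ratio 0.51 to 0.72) and 1.46-fold higher in TET1-si cells (0.46 to 0.63). The TET1-si library was 1.43-fold higher under hypoxia (0.44 to 0.60) and 1.5-fold higher under normoxia (0.48 to 0.69). All 4 intervals excluded 0 and none of the changes reached 2-fold. Relative to the median of all genes the TET1-si changes were 0.42 under hypoxia and 0.44 under normoxia. Exons of PLIN3 share 502 of 2232 bases with a noncoding RNA on the opposite strand that was listed at 0 in all libraries but H-si, where it was at 0.299 FPKM. The level of PLIN3 over that of PLIN2 in the same library was 2.07 in normoxia and 3.32 in hypoxia with the scrambled hairpin, and 3.20 and 4.69 with TET1-si.

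PLIN4 (ENSG00000167676, chromosome 19, 4502204 to 4517716, minus strand), another exchangeable coat protein, was near the floor in N-scr and passed 1 FPKM in H-si alone. The values were 0.199 in normoxia and 0.418 in hypoxia with the scrambled hairpin, and 0.332 and 1.30 with TET1-si, on about 29, 64, 51 and 184 reads. On the ratio scale hypoxia was 2.10-fold higher in scrambled cells (interval of the log2 ratio 0.39 to 1.73) and 3.93-fold higher in TET1-si cells (1.52 to 2.45). TET1-si was 3.12-fold higher under hypoxia (1.24 to 2.09) and 1.67-fold higher under normoxia (0.03 to 1.43). The combined condition thus stood above either condition alone, but the intervals of its hypoxia responses in scrambled and TET1-si cells overlapped. As log2 ratios these are 1.07, 1.97, 1.64 and 0.739, which the pseudocount of 0.1 reduced to 0.79, 1.70, 1.44 and 0.53 in the same order. The gene failed the minimum of 1 FPKM and entered none of the counts above. Of the 50 expressed protein-coding genes nearest to PLIN4, 15 had a TET1-si response at or above that of PLIN4 in normoxia and 2 in hypoxia. Its exons share 17 of 6502 bases with HDGFL2 on the opposite strand, a gene at 30.3 to 40.2 FPKM.

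The other perilipins were low, and are named after their values were seen. PLIN1, the coat protein of fat cell droplets, was at 0.443 FPKM in normoxia and 1.42 in hypoxia with the scrambled hairpin, and 0.212 and 0.760 with TET1-si. PLIN5, a coat protein of oxidative tissues, was at 0.0193, 0.657, 0.265 and 0.568 in the same order, the first of these from about 1 read. Both were higher in the hypoxic library of each pair.

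**Figure D2:**
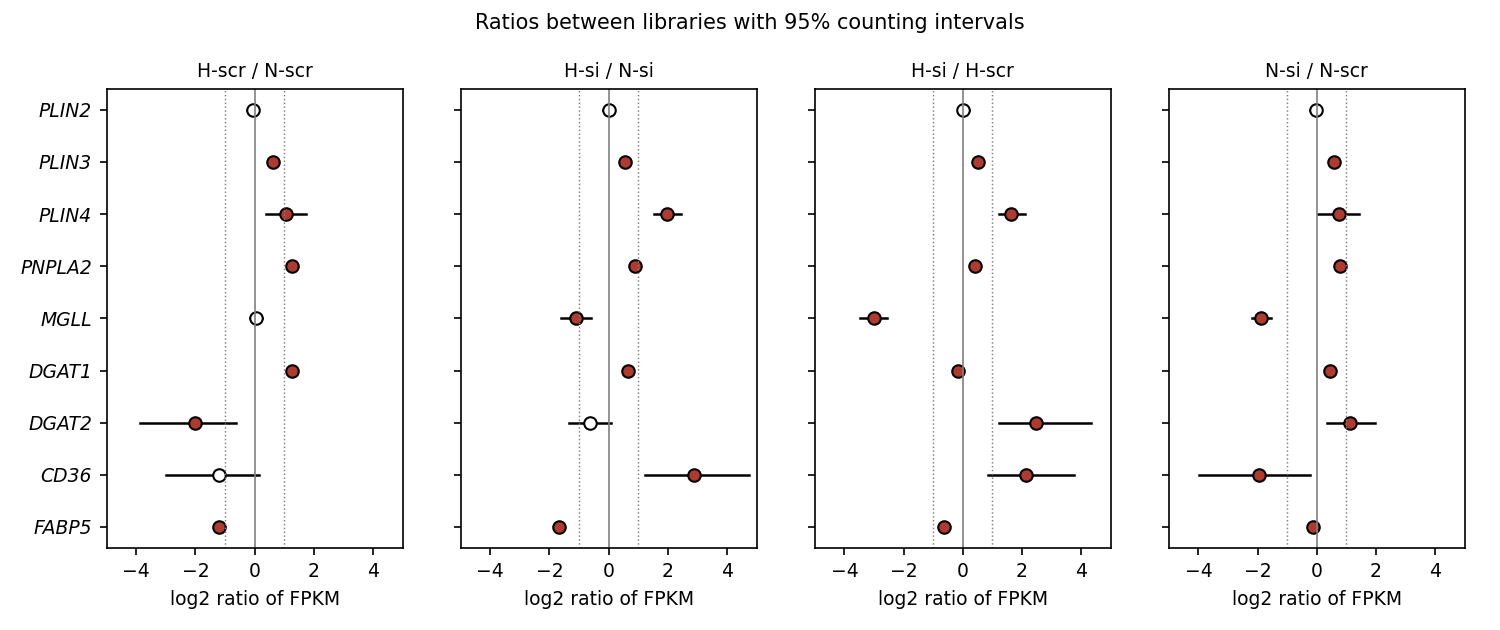
Log2 ratio of FPKM between libraries for the 9 genes above 0, in 1 panel per comparison, with points for the ratio without a pseudocount, bars for the exact 95% counting interval (hidden by the point where narrow), filled points where it excludes 0 and dotted lines at 2-fold. The PLIN2 bars cross 0 in every panel, the FABP5 intervals lie below 0 in every panel, and CD36 and DGAT2 carry the widest bars.

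Lipolysis was represented by its first enzyme, its last enzyme and an inhibitor. PNPLA2 (ENSG00000177666, chromosome 11, 818902 to 825573, plus strand) removes the first fatty acid from triglyceride. Its FPKM was 24.8 in normoxia and 59.6 in hypoxia with the scrambled hairpin, and 43.0 and 80.4 with TET1-si. Both hypoxic libraries lay above both normoxic ones, and each TET1-si library lay above its scrambled partner. The hypoxia response was 2.41-fold in scrambled cells, with an interval of 1.17 to 1.36 on the log2 scale. It was 1.87-fold in TET1-si cells, with an interval of 0.83 to 0.98 that did not overlap the first. TET1-si was 1.74-fold higher under normoxia (0.70 to 0.90) and 1.35-fold higher under hypoxia (0.36 to 0.50). The smaller hypoxia response in TET1-si cells therefore went with a higher normoxic level, not a lower hypoxic one. A noncoding RNA on the opposite strand, ENSG00000255108, shares 332 of the 2416 exon bases of PNPLA2. It was at 3.75 FPKM in normoxia and 9.0 in hypoxia with the scrambled hairpin, and 7.40 and 16.4 with TET1-si, the same order of libraries as PNPLA2. Strand was not stated to be kept, and the part of shared reads in either value was not tested.

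PNPLA2 is controlled by protein partners, of which HILPDA and ABHD5 varied less over the libraries than the enzyme. G0S2 (ENSG00000123689, chromosome 1, 209848765 to 209849733, plus strand), an inhibitor of PNPLA2, was listed at 0 FPKM in all 4 libraries, so no ratio can be given. HILPDA, a second inhibitor that is named for its induction by hypoxia, was at 16.9 FPKM in normoxia and 13.8 in hypoxia with the scrambled hairpin, and 12.8 and 14.3 with TET1-si. ABHD5, the coactivator of PNPLA2, was at 8.45, 8.37, 5.97 and 6.02 FPKM in the same order. The hypoxia change of HILPDA was -0.29 with the scrambled hairpin and 0.16 with TET1-si, while that of ABHD5 was -0.01 and 0.01. PNPLA2 over ABHD5 was 2.93 in normoxia and 7.13 in hypoxia with the scrambled hairpin, and 7.20 and 13.4 with TET1-si. PNPLA2 over HILPDA was 1.47, 4.34, 3.36 and 5.61. Both ratios were thus lowest in N-scr and highest in H-si.

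MGLL (monoacylglycerol lipase, ENSG00000074416, chromosome 3, 127407909 to 127542051, minus strand) cleaves the last fatty acid from glycerol and also degrades the endocannabinoid 2-arachidonoylglycerol. It had the widest range of the 10 genes on the log2(FPKM + 0.1) scale, 2.78. Its FPKM was 4.03 in normoxia and 4.14 in hypoxia with the scrambled hairpin, and 1.10 and 0.516 with TET1-si, on about 373, 412, 109 and 47 reads. The scrambled libraries were level and both TET1-si libraries were below them. The scrambled library was 3.66 times the TET1-si library under normoxia, a change of -1.78 on the log2(FPKM + 0.1) scale with an interval of -2.19 to -1.56 for the log2 ratio. Under hypoxia it was 8.03 times the TET1-si library, a change of -2.78 with an interval of -3.47 to -2.56. Less the all-gene median, the changes were -1.93 and -2.89. Hypoxia changed MGLL by 0.04 in scrambled cells (interval -0.16 to 0.25), a value that became -0.07 with median-of-ratios scaling and -0.02 with upper-quartile scaling. In TET1-si cells the change was -0.96 (interval -1.61 to -0.58), so the 2 hypoxia responses had intervals that did not overlap.

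The study selected TET1-dependent genes by 3 inequalities on FPKM: a scrambled value under hypoxia exceeding 2 times its TET1-si counterpart, a scrambled value higher in hypoxia than in normoxia, and a normoxic TET1-si value no higher than the scrambled one. Of the 10 genes MGLL met all of them, beside 4.33% of all 62077 rows and 3.84% of genes at a mean of at least 1 FPKM. As applied here, the inequalities were met by 2687 rows, and by 578 genes at that mean. Neither count equals the number of genes that the study reports. Whether MGLL is on the study's own list is therefore not shown here. The result for MGLL rested on the middle inequality, where H-scr was 1.03 times N-scr, and it was lost with median-of-ratios or upper-quartile scaling. The genes nearest to MGLL in pattern, by Euclidean distance between centred log2 values over the 4 libraries among 10781 genes, were PXDN (distance 0.22), C6orf141 (0.38) and ATP2B1 (0.38). PXDN was at 12.6 FPKM in normoxia and 13.1 in hypoxia with the scrambled hairpin, and 2.98 and 1.70 with TET1-si. Summed squamous markers were also lower in each TET1-si library, with 4 of the 9 at least 2-fold lower under hypoxia and 3 under normoxia, beside 8.35% and 5.56% of all genes. KRT5 and KRT17 carry most of the sum, and the list did not move as one. By ratio KRT6A and KRT14 dropped most. KRT6A was at 109 FPKM in H-scr and 0.357 in H-si, and at 67.7 in N-scr and 0.394 in N-si. KRT14 was at 99.9 and 1.41, and at 42.1 and 0.487, in the same order. Of the 9 markers, 3 changed above 0 under hypoxia and 2 under normoxia. CDH1 changed by 0.45 under hypoxia and 0.57 under normoxia and EPCAM by 0.68 and 0.41, while TP63 changed by -0.04 and -0.27. The part of these markers in the MGLL values was not tested. The 50 expressed protein-coding genes nearest to MGLL had a median TET1-si change of -0.24 under hypoxia and -0.22 under normoxia. Of these neighbours 0 were as low as MGLL under hypoxia and 1 under normoxia.

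**Figure D3:**
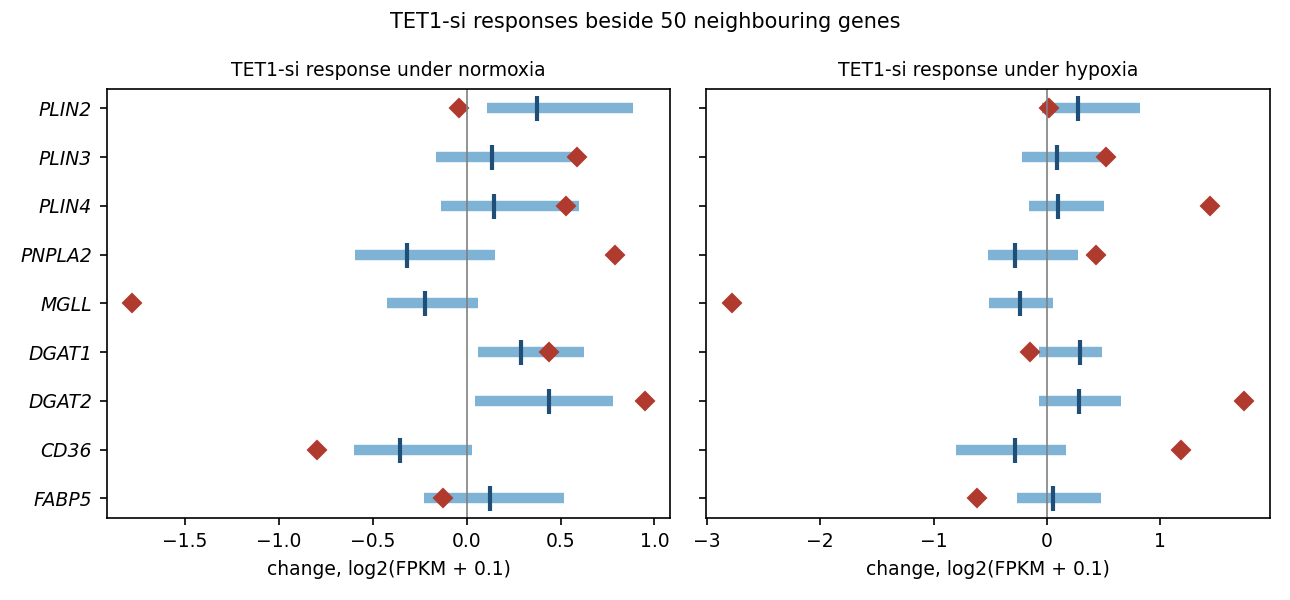
Change after TET1-si in normoxia (left) and hypoxia (right), as the difference of log2(FPKM + 0.1), for the 9 genes above 0 (diamonds) beside the median (tick) and middle range (bar, lower to upper quartile) of the 50 nearest expressed protein-coding genes on the chromosome. The panels have different horizontal scales. MGLL, at -1.78 and -2.78, lies left of the bar of its neighbours, whose medians are -0.22 and -0.24, while PLIN2 is close to 0 in both panels.

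Triglyceride synthesis ends with either of 2 unrelated enzymes that add the third fatty acid. DGAT1 (ENSG00000185000, chromosome 8, 145539954 to 145550573, minus strand) lies in the endoplasmic reticulum membrane. It was listed at 12.5 FPKM in normoxia and 29.5 in hypoxia with the scrambled hairpin, and 16.9 and 26.6 with TET1-si, on about 979 to 2488 reads. Both hypoxic libraries were above both normoxic ones. The hypoxia response was 2.37-fold in scrambled cells (1.14 to 1.35) and 1.57-fold in TET1-si cells (0.55 to 0.75), and these intervals did not overlap. TET1-si was 1.36-fold higher under normoxia (0.33 to 0.56) and 0.899-fold under hypoxia (-0.24 to -0.07). The 2 knockdown responses had opposite signs. DGAT1 exons share 137 of 3653 bases with HSF1 on the opposite strand, which was between 77.1 and 93.4 FPKM, and 444 bases with a noncoding RNA on the same strand at 2.48 to 4.63 FPKM.

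DGAT2 (ENSG00000062282, chromosome 11, 75479778 to 75512579, plus strand), which also acts at the droplet surface, was scarce. Its FPKM was 0.408 in normoxia and 0.102 in hypoxia with the scrambled hairpin, and 0.880 and 0.575 with TET1-si, on about 20, 5, 47 and 28 reads. Each TET1-si library was above its scrambled partner and each hypoxic library below its normoxic partner, although H-si was above N-scr. Within each pair the hypoxia direction was opposite to that of DGAT1. The interval for hypoxia excluded 0 in scrambled cells (-3.87 to -0.64) and included it in TET1-si cells (-1.35 to 0.08). Those for TET1-si ran from 1.22 to 4.34 under hypoxia and from 0.35 to 1.97 under normoxia. DGAT1 over DGAT2, both per kb of exon, was 30.5 in normoxia and 289 in hypoxia with the scrambled hairpin, and 19.2 and 46.2 with TET1-si. The value in H-scr rests on the 5 reads of DGAT2. A noncoding RNA on the opposite strand shares 423 of its 2407 exon bases and was between 0.149 and 0.299 FPKM.

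Uptake and intracellular transport gave the most abundant gene of the 10 and one of the least. FABP5 (epidermal fatty acid binding protein, ENSG00000164687, chromosome 8, 82192598 to 82197012, plus strand) carries fatty acids in the cytosol of squamous epithelium. It was at 165.3 FPKM in normoxia and 72.5 in hypoxia with the scrambled hairpin, and 151.4 and 47.2 with TET1-si, on about 1748, 822, 1714 and 489 reads. Both hypoxic libraries were below both normoxic ones. Normoxia was 2.28 times hypoxia in scrambled cells (interval of the log2 ratio -1.31 to -1.07) and 3.21 times in TET1-si cells (-1.83 to -1.54), and the intervals did not overlap. TET1-si changed FABP5 by -0.62 under hypoxia (-0.78 to -0.46) and by -0.13 under normoxia (-0.22 to -0.03). None of the 50 nearest expressed protein-coding genes was as low as FABP5 for hypoxia, in scrambled or in TET1-si cells. The file lists 13 FABP5 pseudogenes, which can share reads with FABP5, and the highest value among them was 0.221 FPKM. The summed squamous markers, mostly KRT5 and KRT17, were higher in hypoxia in both cell states, but of the 9 markers 1 changed below 0 with the scrambled hairpin and 3 with TET1-si. EPCAM was below 0 in both, at -0.60 and -0.33. The part of these markers in the FABP5 values was not tested.

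CD36 (ENSG00000135218, chromosome 7, 79998891 to 80308593, plus strand), a receptor for fatty acids and oxidised lipoproteins, was barely detected. Its FPKM was 0.135 in normoxia and 0.0585 in hypoxia with the scrambled hairpin, and 0.0353 and 0.259 with TET1-si, from about 14, 6, 4 and 25 reads. The interval for hypoxia included 0 in scrambled cells (-2.99 to 0.15) and lay above 0 in TET1-si cells (1.24 to 4.75). For TET1-si it lay above 0 under hypoxia (0.87 to 3.76) and below 0 under normoxia (-3.97 to -0.23). At these read numbers the direction is described for these libraries only. CD36 also marks macrophages, fat cells and endothelium. The 6 adipocyte markers summed to 1.98 to 17.5 FPKM, most of it LIPE, and the defining markers ADIPOQ and LEP were listed at 0 in all libraries. The 5 macrophage markers summed to 22.0 to 30.4 FPKM, most of it CD68. The 2 endothelial markers measured summed to 8.91 FPKM in normoxia and 17.8 in hypoxia with the scrambled hairpin, and 22.2 and 48.4 with TET1-si. Most of this was CDH5, at 8.75, 16.0, 21.8 and 45.5 FPKM in the same order. The 4 fibroblast markers summed to 5.66, 29.0, 14.2 and 37.3, nearly all of it COL1A1. VIM was at 0.355, 0.406, 0.151 and 0.0816 FPKM, and COL3A1 and PDGFRB were at or below 0.241 FPKM. Their part in the CD36 values was not tested.

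The wider pathway was followed through 72 further genes in 6 roles, of which 50 had a mean of at least 1 FPKM. With the scrambled hairpin, hypoxia had 17 of the 50 (34%) at least 2-fold higher and 4 (8%) lower, beside 12.9% and 4.53% of all genes. In TET1-si cells the counts were 11 (22%) and 3 (6%), beside 12.5% and 8.66%. After TET1-si the counts were 6 up and 5 down in the hypoxic pair of libraries, and 7 up and 2 down in the normoxic pair. These are 12% and 10% of the 50 beside 12% and 8.35% of all genes, and 14% and 4% beside 12.1% and 5.56%, so they lie near the shares of all genes. The all-gene shares for hypoxia also stand as the background of the counts by role that follow, most of which rest on few genes. The median hypoxia change of the 50 was 0.38 and 0.18 in the 2 cell states, with 5 of the 72 genes listed at 0 in all libraries. In lipolysis 3 of 5 genes were at least 2-fold higher under hypoxia with the scrambled hairpin and 2 of 5 with TET1-si, and 0 were lower, beside 12.9% and 12.5% higher among all genes. The LIPE gene (hormone-sensitive lipase, the second lipolytic enzyme) was at 1.43 FPKM in normoxia and 8.46 in hypoxia with the scrambled hairpin, and 5.96 and 16.8 with TET1-si, changes of 2.48 and 1.48. Its exons share 131 of 3768 bases with the antisense LIPE-AS1, which was at 0.0539, 5.42, 6.95 and 9.03 FPKM and was likewise lowest in N-scr and highest in H-si. PNPLA3 (adiponutrin, a relative of PNPLA2) was at 1.14, 9.35, 4.12 and 11.1 FPKM. Both genes therefore had the order of PNPLA2 in which N-scr was lowest and H-si highest. LIPA, the lysosomal acid lipase, was instead lower after TET1-si, at 34.9 FPKM in normoxia and 93.8 in hypoxia with the scrambled hairpin, and 17.2 and 32.3 with TET1-si.

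Glycerolipid synthesis upstream of DGAT1 and DGAT2 was grouped with sterol ester synthesis, 12 genes with a mean of at least 1 FPKM. Hypoxia with the scrambled hairpin had 3 of these 12 genes at least 2-fold higher and 3 lower, beside 12.9% and 4.53% of all genes. With TET1-si 2 were higher and 2 lower, beside 12.5% and 8.66%. LPIN3, a phosphatidate phosphatase, was at 7.61 FPKM in normoxia and 29.5 in hypoxia with the scrambled hairpin, and 13.2 and 36.9 with TET1-si, and shares 621 of 4462 exon bases with EMILIN3 on the opposite strand. EMILIN3 was at 1.08, 3.06, 1.66 and 4.32 FPKM, in the same order of libraries as LPIN3. AGPAT5, a lysophosphatidate acyltransferase, was lower in hypoxia, at 37.2, 17.9, 29.1 and 14.4 FPKM. LPIN1, a second phosphatidate phosphatase named here after its values were seen, was at 6.55 FPKM in normoxia and 51.9 in hypoxia with the scrambled hairpin, and 12.9 and 13.2 with TET1-si. The hypoxia change of LPIN1 was 2.97 with the scrambled hairpin and 0.03 with TET1-si, beside 1.24 and 0.65 for DGAT1. ACSL1, which activates long-chain fatty acids and was also chosen after its values were seen, was at 9.76, 75.7, 12.4 and 24.1 FPKM. In uptake, binding and activation 5 of 11 genes were higher under hypoxia with the scrambled hairpin and 2 with TET1-si, with 0 lower in either, beside the same all-gene shares, while FABP5 was lower in both.

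Hypoxia with the scrambled hairpin had 3 of 10 oxidation genes higher and 0 lower, with 2 and 0 in TET1-si cells. The all-gene shares were 12.9% higher and 4.53% lower, and 12.5% and 8.66%. CPT1B, which moves fatty acids into mitochondria, changed by 1.25 and 1.09, although it shares 2553 of 2603 exon bases with the CHKB-CPT1B readthrough gene. SLC25A20, the carnitine carrier, was at 5.31 FPKM in normoxia and 4.29 in hypoxia with the scrambled hairpin, and 11.4 and 11.5 with TET1-si, higher after TET1-si under both oxygen states. Of 7 droplet coat and assembly genes 1 was higher in hypoxia in each cell state, METTL7A, a droplet-associated methyltransferase-like protein at 1.26, 7.92, 1.64 and 11.3 FPKM. The share of 14.3% is near that of all genes. Among 5 PPAR regulators and targets 2 were higher and 1 lower in each cell state, but the 2 higher genes were not the same pair in both. Each hypoxia response used its own pair of libraries, while the TET1-si responses drew on the same 4 libraries and are not independent of them.

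**Figure D4:**
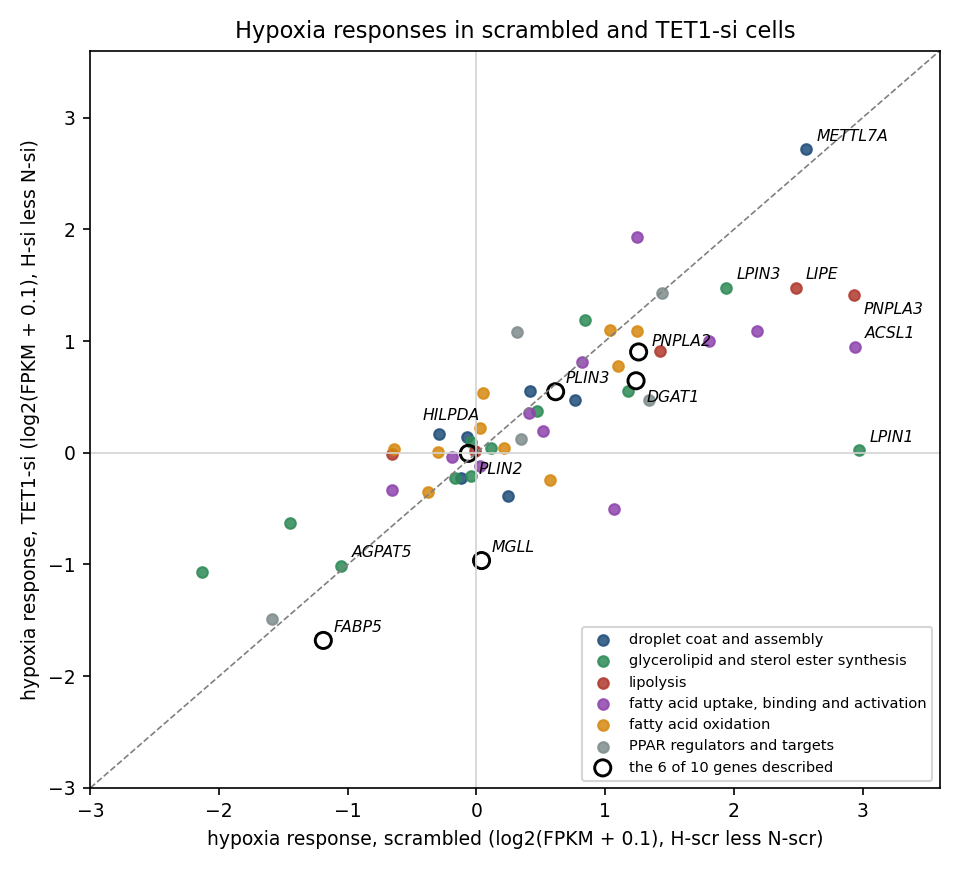
Hypoxia response in TET1-si cells against that in scrambled cells, both as differences of log2(FPKM + 0.1), for the pathway genes at a mean of at least 1 FPKM, coloured by role, and for the 6 of the 10 genes described that pass the same minimum, drawn as open black rings. The dashed line marks equal responses. PNPLA2 (1.26 and 0.90) and DGAT1 (1.24 and 0.65) lie right of PLIN3 (0.62 and 0.55), PLIN2 is near the origin, and FABP5 (-1.19 and -1.68) and MGLL (0.04 and -0.96) lie below it.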

How the data were processed

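RNA was sequenced from 4 FaDu libraries, 1 per group, so the labels give no replicates. Per the labels and the study's methods, the authors made TruSeq mRNA libraries, read 100 bp on an Illumina HiSeq 2000 (single end in the labels, paired end in the methods), and ran TopHat and Cufflinks on hg19 with Ensembl annotations. Versions, the Ensembl release and filters are not given in the sources used here. The deposited values are FPKM made by the authors and were used unchanged. FPKM are not counts, so no count test was run.

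Differences were taken on log2(FPKM + 0.1), which shrinks the changes of weakly expressed genes. A gene counted as changed at 2-fold with a mean of at least 1 FPKM, and 111 gene IDs that stand on 232 rows were left out of all counts except the 3 inequalities, which used every row. None of the 10 genes is among them. DGAT1 has 1 further row off the assembled chromosomes, at 0 throughout, that was not used. File positions count starts from 0, so 1 was added. Depth was recovered from 6326 genes with 1 exon, as the depth and length offset (median 213 bp) that made low values whole reads. Between 95.4% and 96.4% of these were whole within 0.05 of a read, and the search, checked where the depth was known, missed it by at most 0.621%. Reads per gene are approximate, since they use the canonical GENCODE v44lift37 length (86.3% of rows matched, and 10 of the 10 genes). Two-library intervals are exact at 95% and cover counting error only. Single libraries allow no test.

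The 10 genes, the pathway list and the markers were chosen with earlier results of these data known. All 10 genes are named. Pathway genes are named when at a mean of at least 5 FPKM and 2-fold changed the same way in both cell states or both oxygen states, with HILPDA and ABHD5 added. PLIN1, PLIN5, LPIN1 and ACSL1 fall outside this rule and were chosen after their values were seen. Promoters and their starts came from RefSeq (GRCh38.p14) and were not placed on hg19. Alternatives were other pseudocounts, minimum levels and scalings. Python 3.11.15, numpy 2.4.6, pandas 2.3.3, scipy 1.17.1 and matplotlib 3.10.9 were used.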

Additional observations from a re-analysis of the deposited data

Results flagged for a closer look

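The TET1-si response of DGAT1 was 0.44 under normoxia and -0.15 under hypoxia, and that of CD36 was -0.80 under normoxia and 1.18 under hypoxia. Each pair had opposite signs with both counting intervals excluding 0. The difference, hypoxia less normoxia on the log2(FPKM + 0.1) scale, was -0.593 for DGAT1 and 1.98 for CD36. With 1 library per group the difference was not tested. The CD36 values rest on 4 to 25 reads per library. The sign of the DGAT1 response under hypoxia was negative under every scaling tried.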

How the results depend on the processing

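Of 196 recomputed changes of the 10 genes, 159 were unchanged or stayed within their counting interval and 37 moved outside it. The 159 include the values of G0S2, which has no interval and, at 0 throughout, could not move. The 6 changes that reached 2-fold kept their sign in every setting. With no minimum level all 10 genes were counted in place of 6. Then 2 were lower in hypoxia in scrambled cells and 2 higher in TET1-si cells, beside 2.67% and 7.77% of all genes. After TET1-si under hypoxia 3 were higher, beside 6.83%, and the median became 0.224. A minimum of 5 FPKM removed MGLL, leaving 0 lower after TET1-si, beside 7.32% of all genes under hypoxia and 4.03% under normoxia. It also left 0 meeting the study's inequalities and a TET1-si median of 0.0178 under hypoxia. Over all settings the median of the genes ran from 0.0198 (no minimum) to 0.615 (minimum of 5 FPKM) for hypoxia in scrambled cells, from 0.178 (median-of-ratios) to 0.547 (minimum of 5 FPKM) in TET1-si cells, and from 0.0283 (upper-quartile) to 0.44 (minimum of 5 FPKM) for TET1-si under normoxia. Rescaling to TPM gave 1 higher in hypoxia in TET1-si cells, beside 15.6% of all genes. No pseudocount, or median-of-ratios scaling, gave 2 lower there, beside 8.57% and 10.2% of all genes. Median-of-ratios and upper-quartile scaling left 0 meeting the inequalities.

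For the pathway genes a minimum of 5 FPKM gave 11 higher and 2 lower for hypoxia with the scrambled hairpin, 7 higher and 1 lower in TET1-si cells, 3 higher after TET1-si under hypoxia and 4 higher under normoxia. A pseudocount of 1 gave 7 of 50 higher and 1 lower in hypoxia in TET1-si cells, beside 8.56% and 7.06% of all genes. It gave 4 higher and 0 lower after TET1-si under normoxia, beside 7.73% and 3.85%. With no minimum 10 of 72 were lower after TET1-si under hypoxia and 4 under normoxia, beside 4.99% and 3.72% of all genes. Median-of-ratios and upper-quartile scaling each gave 4 higher and 4 lower after TET1-si under normoxia. The all-gene shares were 9.45% higher and 7.41% lower with the first, and 9.36% and 7.48% with the second. TPM gave 1 lower in hypoxia in TET1-si cells and 0 lower after TET1-si under normoxia, beside 7.02% and 5.13% of all genes. Rescaling to TPM moved the share of all genes changed in hypoxia to 15.5% higher and 3.22% lower in scrambled cells. No paired analysis was possible because each group had 1 library, and no replicate could be left out. Depth limits PLIN4, DGAT2, CD36 and TET1, with as few as 4 reads in a library.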
